A study of Mus musculus with 2 samples.

Results

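Integrins are the adhesion receptors with which T cells enter, cross and stay in tissue, and the 10 genes described here are 9 integrin subunits and Cdh1, which encodes E-cadherin. They comprise 6 alpha subunits (Itgae, Itga1, Itga4, Itga6, Itgav and Itgal), 3 beta subunits (Itgb7, Itgb1 and Itgb2) and 1 ligand. They were taken from the 54532 gene rows of the count table by symbol, with 1 row each. The rule that names them uses no measured value, but the set was drawn up with earlier results of these data known. Cdh1 is not an integrin and belongs to the set as the epithelial ligand of 1 of them. The cells were CD4+ BDC-2.5 effector T cells, which carry a transgenic T cell receptor against pancreatic beta cells and had been activated before adoptive transfer into NOD.scid mice, hosts without their own T or B lymphocytes that keep myeloid cells and weak NK cells. In the 2.5HIP-PLG group the hosts were given 1.75 mg of 2.5HIP-PLG nanoparticles intravenously 1 day after transfer, while the Untreated group was left without particles. Foxp3-negative (GFP-negative) cells were sorted from spleen and lymph nodes on day 6, from 4 mice pooled per group, and each group gave 1 library. The host age is not given in the labels.

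An integrin is a pair of 1 alpha and 1 beta chain, and the pairing sets the ligand. Itgae is CD103, a chain induced by TGF-beta that with Itgb7 holds T cells to E-cadherin on epithelium, while Itga4 with Itgb7 forms the gut-homing receptor for MAdCAM-1. Paired with Itgb1, Itga4 forms VLA-4, the receptor for VCAM-1 and fibronectin, Itga1 (CD49a) forms VLA-1, a collagen receptor found on resident T cells, and Itga6 forms a laminin receptor. Itgal and Itgb2 form LFA-1, which binds ICAM-1 during arrest on vessels and during contact with antigen-presenting cells.

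Promoter sequence is shown for Itga1, for Itgb7, the beta partner of CD103, and for Itga4, the other alpha partner of that chain. The RefSeq promoter table on GRCm38.p6 held 5 of the 10 genes (Itga1, Itgb7, Itgb1, Itga4 and Itgav), and Itgae, Itgal, Itgb2, Itga6 and Cdh1 had no entry. Each line gives the 250 bases before the first transcribed base, 5′ to 3′ on the gene's strand. Capitals mark the core motif of RUNX factors (TGTGGT or its reverse complement ACCACA) and the core motif of SMAD factors (CAGAC or its reverse complement GTCTG), searched on both strands with no overlap between the 2 motifs. The Itga1 window is chr13:115101965-115102214 on the minus strand, the Itgb7 window chr15:102231936-102232185 on the minus strand and the Itga4 window chr2:79255176-79255425 on the plus strand.
Itga1: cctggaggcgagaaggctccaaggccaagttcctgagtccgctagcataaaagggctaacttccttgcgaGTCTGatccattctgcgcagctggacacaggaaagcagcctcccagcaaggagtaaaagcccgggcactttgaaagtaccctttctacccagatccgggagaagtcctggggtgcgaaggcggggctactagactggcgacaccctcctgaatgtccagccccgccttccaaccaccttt
Itgb7: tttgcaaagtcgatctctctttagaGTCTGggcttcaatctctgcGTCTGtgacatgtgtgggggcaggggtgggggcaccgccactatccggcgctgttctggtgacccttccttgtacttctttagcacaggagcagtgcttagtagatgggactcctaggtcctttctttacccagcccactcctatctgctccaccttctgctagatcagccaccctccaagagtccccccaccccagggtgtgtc
Itga4: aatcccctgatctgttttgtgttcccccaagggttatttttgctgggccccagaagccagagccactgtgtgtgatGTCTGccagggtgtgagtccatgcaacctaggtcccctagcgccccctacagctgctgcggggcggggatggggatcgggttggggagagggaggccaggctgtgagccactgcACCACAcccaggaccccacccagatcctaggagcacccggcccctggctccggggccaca
The SMAD core occurred 1 time before Itga1, 2 times before Itgb7 and 1 time before Itga4, and 42.2% of the 32851 promoter windows of the table hold it. In the windows not shown, it occurred 3 times before Itgb1 and 0 times before Itgav. The RUNX core occurred 1 time before Itga4 and 0 times before Itga1, Itgb7, Itgb1 and Itgav, and 14.0% of windows hold it. A match is a run of letters and not a measured binding site.

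Total counts were 22580648 in 2.5HIP-PLG cells, against 26036623 in Untreated cells, so that 1 count was worth 0.0443 CPM in 2.5HIP-PLG and 0.0384 in Untreated cells (counts scaled to a library of 1000000). With 1 library per group there is no replicate check and no p-value. Each ratio is 2.5HIP-PLG over Untreated, scaled by library total, with an exact 95% interval for counting error alone. A gene was called lower or higher when the ratio was past 1.5-fold in that direction and the interval excluded 1. Of 13902 measured genes (a count sum of 20 or more), 9.70% were called lower and 5.15% higher, and the median log2 ratio was -0.01. The 8 CD4 T cell markers were abundant, 6901 CPM summed in 2.5HIP-PLG cells, against 5615 CPM in Untreated cells, and 0 of them were called. All 8 had ratios above 1, and their median log2 ratio was 0.37. The libraries also differed in composition. Trbv segments other than the transgenic Trbv2 made up 1.37% of Trbv counts (exact binomial interval 1.18 to 1.57) in 2.5HIP-PLG cells, against 4.14% (3.82 to 4.47) in Untreated cells. The 4 Y-linked genes examined were between 3.06-fold and 5.18-fold lower after 2.5HIP-PLG, and CT010467.1, a ribosomal RNA gene, held 0.202% of all counts in 2.5HIP-PLG cells, against 1.06% in Untreated cells.

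All 10 genes were measured. Itgae, Cdh1 and Itga1 were called lower in 2.5HIP-PLG cells, 0 were called higher, and the other 7 were neither. This count of 3 in 10 stands beside 9.70% of all measured genes. The 3 genes were also the least abundant of the 10 by count, with count sums of 419 to 1978. Among the other 7 members the ratios lay between 0.777 for Itgb7 and 1.21 for Itga6. The median log2 ratio of the 10 was -0.04.

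**Figure D1:**
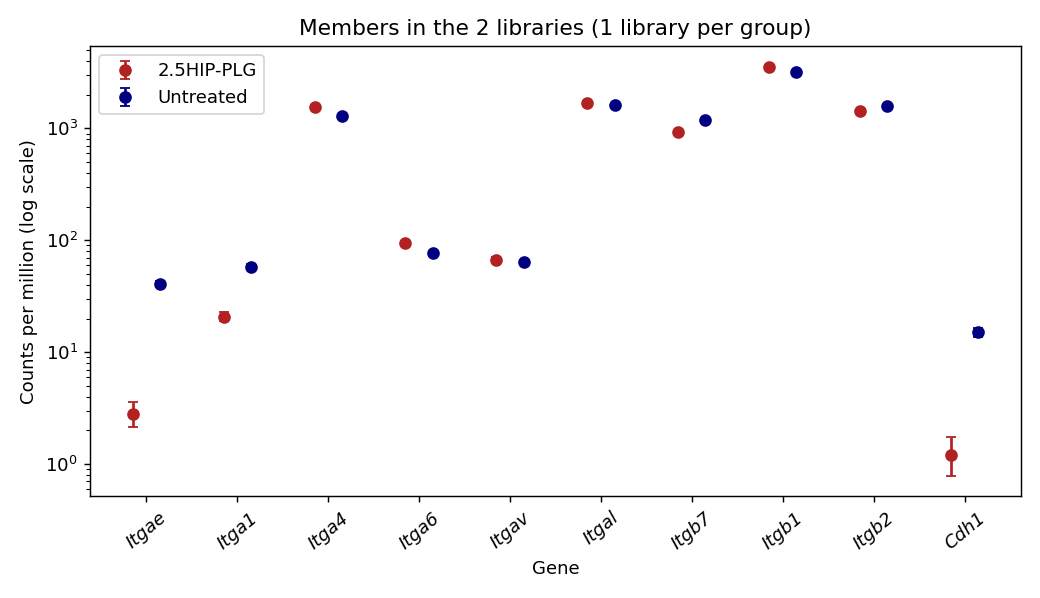
CPM of the 10 genes (log scale) in 2.5HIP-PLG cells (red, left of each pair) and the Untreated library (blue, right), with exact 95% Poisson intervals that are mostly smaller than the points. Itgae was at 2.79 CPM in 2.5HIP-PLG cells, against 40.9 CPM in Untreated cells, whereas Itgb1 was at 3560 CPM in 2.5HIP-PLG and 3208 in Untreated cells.

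Itgae, the gene of CD103 (chromosome 11, 73090583 to 73147446, plus strand, GRCm38), had 63 counts in 2.5HIP-PLG cells, against 1065 counts in Untreated cells, or 2.79 CPM in 2.5HIP-PLG and 40.9 in Untreated cells. The ratio was 0.0682 (0.0520 to 0.0880), which is 14.7-fold lower (11.4 to 19.2). The 2 libraries' counting intervals for this gene did not overlap. Only 25 of the 13902 measured genes had a lower log2 ratio than the -3.86 of Itgae. Haspin, a mitotic kinase gene that lies within Itgae on the opposite strand, had 629 counts in 2.5HIP-PLG and 881 in Untreated cells (ratio 0.823, 0.742 to 0.913). The expected counts of Itgae were whole numbers. With the counts of Haspin added, the locus was still called lower, at 2.44-fold (2.24 to 2.66).

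Cdh1 (chromosome 8, 106603351 to 106670246, plus strand) encodes E-cadherin, the adhesion molecule of epithelial junctions and the ligand of CD103 paired with Itgb7. It had 27 counts in 2.5HIP-PLG cells, against 392 counts in Untreated cells, or 1.20 CPM in 2.5HIP-PLG and 15.1 in Untreated cells. The ratio was 0.0794 (0.0517 to 0.117), 12.6-fold lower (8.52 to 19.4), and its counts were whole. The receptor chain and its ligand were thus both higher in Untreated cells, though scarce beside the abundant subunits, and their log2 ratios of -3.86 and -3.63 had overlapping intervals. Of all measured genes, 25 had a lower log2 ratio than Itgae and 32, Itgae among them, a lower one than Cdh1. Other genes thus lay between Itgae and Cdh1, nearer to Cdh1 than Itgae was. The search for near genes left these others out, as it kept only the 8328 protein-coding genes with at least 500 counts in sum. Within that filtered search, Itgae was the gene with the log2 ratio nearest to that of Cdh1. Trat1, a T cell receptor adaptor, at -2.90, and Specc1 at -2.81 came next for Cdh1. The same genes were the nearest to Itgae in this search, which left out Cdh1 itself, as its count sum was 419. With 2 libraries this likeness means a similar ratio and nothing more.

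Itga1, the gene of CD49a (chromosome 13, 114953096 to 115101964, minus strand), had 468 counts in 2.5HIP-PLG cells, against 1510 counts in Untreated cells, or 20.7 CPM in 2.5HIP-PLG and 58.0 in Untreated cells. The ratio was 0.357 (0.322 to 0.397), 2.80-fold lower (2.52 to 3.11). The size of this difference lay well below those of Itgae and Cdh1, whose intervals did not reach it. Its counts were not whole, and 3 genes overlap it. Pelo, which lies within Itga1 on the same strand, had 363 counts in 2.5HIP-PLG and 453 in Untreated cells, Gm49395 had 42 in 2.5HIP-PLG and 80 in Untreated, and the antisense gene Gm10734 had 6 in 2.5HIP-PLG and 46 in Untreated. Summed over Itga1 and these 3 genes the ratio was 0.485 (0.448 to 0.525), 2.06-fold lower. The genes with the nearest log2 ratios to the -1.48 of Itga1 were Prss16 at -1.47, Hs3st3b1 at -1.50 and Acss2 at -1.53.

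**Figure D2:**
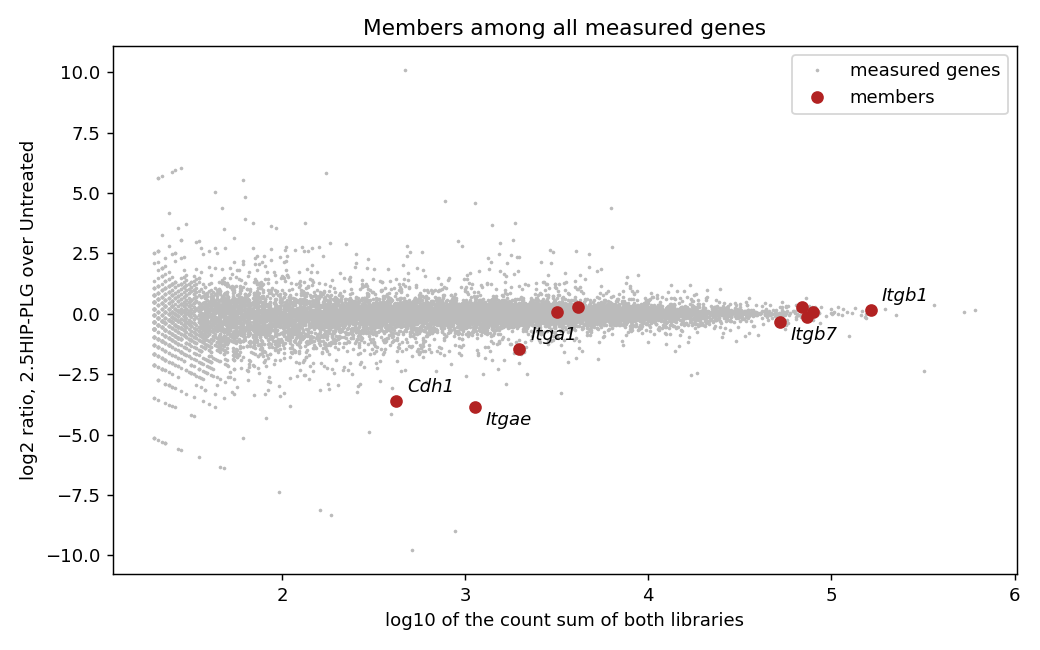
The log2 ratio of 2.5HIP-PLG over Untreated (vertical axis) against the log10 of the count sum of both libraries (horizontal axis) for the 13902 measured genes (grey) and the 10 described here (red). Itgae and Cdh1, at -3.86 and -3.63, lie below nearly all genes of similar count, and the members that were not called lie close to 0.

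The partners of the lower alpha chains differed far less. Itgb7 (chromosome 15, 102215995 to 102231944, minus strand), the beta partner of CD103 and the beta chain of the gut-homing receptor, had 20980 counts in 2.5HIP-PLG cells, against 31135 counts in Untreated cells. Its ratio of 0.777 (0.764 to 0.791) was below 1 by more than counting error and did not reach the size for a call. Itgb1, the shared beta chain of the collagen, laminin and fibronectin receptors (chromosome 8, 128685654 to 128733200, plus strand), had 80390 counts in 2.5HIP-PLG and 83520 in Untreated cells (ratio 1.11, 1.099 to 1.12). It was the most abundant of the 10 in both libraries.

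The alpha chains of lymphocyte traffic differed little between the libraries and were not called. The ratios of Itga4, Itgal and Itga6 were above 1 by more than counting error, and that of Itgb2 was below 1 by more than counting error. Itga4 (chromosome 2, 79255426 to 79333123) had 35442 counts in 2.5HIP-PLG cells, against 33829 counts in Untreated cells (ratio 1.21, 1.19 to 1.23). Itgal (chromosome 7, 127296260 to 127335138) had 37896 counts in 2.5HIP-PLG and 41898 in Untreated cells (1.04, 1.03 to 1.06). Its partner Itgb2 (chromosome 10, 77530252 to 77565708), the beta chain of LFA-1 and the other CD18 integrins of leukocytes, had 32589 counts in 2.5HIP-PLG and 41328 in Untreated cells (0.909, 0.896 to 0.923). The 2 chains of LFA-1 thus lay close to 1, on either side of it. Itga6, the laminin receptor chain (chromosome 2, 71745616 to 71858416), had 2120 counts in 2.5HIP-PLG and 2015 in Untreated cells (1.21, 1.14 to 1.29). Itgav, the chain of vitronectin receptors that bind RGD motifs and can activate TGF-beta (chromosome 2, 83724397 to 83806916), had 1517 counts in 2.5HIP-PLG and 1672 in Untreated cells, and its interval of 0.975 to 1.12 held 1. The expected counts of Itga4, Itgav and Itga6 were not whole.

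Levels were compared between genes as counts per kilobase of annotated exon, scaled to library size as for CPM (RPKM). In 2.5HIP-PLG cells the order was Itgb1 at 872 RPKM, Itgb2 at 473, Itgb7 at 335, Itgal at 256, Itga4 at 112, Itga6 at 10.4, Itgav at 6.25, Itga1 at 1.11, Itgae at 0.609 and Cdh1 at 0.261. Each step of that order was larger than the counting intervals. In Untreated cells the first 5 places were the same, at 786, 520, 432, 245 and 92.95 RPKM. Below them came Itgae at 8.93, Itga6 at 8.58, Itgav at 5.98, Cdh1 at 3.29 and Itga1 at 3.12 RPKM. Itgae thus stood 9th in 2.5HIP-PLG cells and 6th in Untreated cells. In Untreated cells the counting intervals of Itgae and Itga6 overlapped, as did those of Cdh1 and Itga1. With the longest transcript as length, both of those neighbouring pairs changed order.

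On the RPKM scale, the shares of Itgae, Itga1 and Itgb7 among possible partners of 1 chain were lower in 2.5HIP-PLG cells. These shares restate the same counts, and that of Itgal was slightly higher. Of the 2 alpha partners of Itgb7, Itgae made up 0.539% (0.415 to 0.689) in 2.5HIP-PLG cells, against 8.76% (8.28 to 9.26) in Untreated cells, the rest being Itga4. Of the 12 alpha genes that can pair with Itgb1, Itga1 made up 0.799% (0.729 to 0.875) in 2.5HIP-PLG cells, against 2.59% (2.46 to 2.72) in Untreated cells. Of the 2 beta partners of Itga4, Itgb7 made up 27.8% (27.5 to 28.1) in 2.5HIP-PLG cells, against 35.5% (35.2 to 35.7) in Untreated cells, the rest being Itgb1. Itgal made up 98.4% of the alpha partners of Itgb2 in 2.5HIP-PLG cells, against 97.6% in Untreated cells. These are shares of transcripts and say nothing of the pairs formed at the cell surface.

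Of the other 17 integrin subunit genes, 13 were measured, 4 were called lower, 1 was called higher and 8 were neither, and the list's median log2 ratio was -0.39. The lower ones were Itgax, the CD11c chain of dendritic cells and some activated T cells (108 counts in 2.5HIP-PLG and 320 in Untreated cells, 0.389, 0.310 to 0.486), Itga5, the fibronectin receptor chain (40 counts in 2.5HIP-PLG and 91 in Untreated cells, 0.507), Itgb3, a beta partner of Itgav (791 counts in 2.5HIP-PLG and 1509 in Untreated cells, 0.604, 0.554 to 0.659), and Itga2, a second collagen receptor chain (467 counts in 2.5HIP-PLG and 812 in Untreated cells, 0.663, 0.591 to 0.744). Itga2 lay at the size limit and was not called under trimmed-mean (TMM) or median-of-ratios scaling. The higher one was Itgb8, which with Itgav activates latent TGF-beta, with 37 counts in 2.5HIP-PLG cells, against 6 counts in Untreated cells (7.11, 2.98 to 20.6).

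The remaining subunits were not called. Itga3 had 421 counts in 2.5HIP-PLG and 327 in Untreated cells (1.49, 1.28 to 1.72), Itga7 had 457 in 2.5HIP-PLG and 417 in Untreated (1.26, 1.10 to 1.45) and Itgad had 135 in 2.5HIP-PLG and 107 in Untreated (1.46, 1.12 to 1.89). Itgam had 219 counts in 2.5HIP-PLG and 325 in Untreated cells (0.777, 0.652 to 0.925). The intervals of Itgb5 (59 counts in 2.5HIP-PLG and 77 in Untreated cells), Itga9 (29 in 2.5HIP-PLG and 46 in Untreated), Itga2b (23 in 2.5HIP-PLG and 35 in Untreated) and Itga10 (15 in 2.5HIP-PLG and 28 in Untreated) held 1. Itga8 had 2 counts in 2.5HIP-PLG and 0 in Untreated cells, Itga11 had 3 in 2.5HIP-PLG and 0 in Untreated, Itgb4 had 6 in 2.5HIP-PLG and 5 in Untreated, and Itgb6 had 0 in both, too few to compare.

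**Figure D3:**
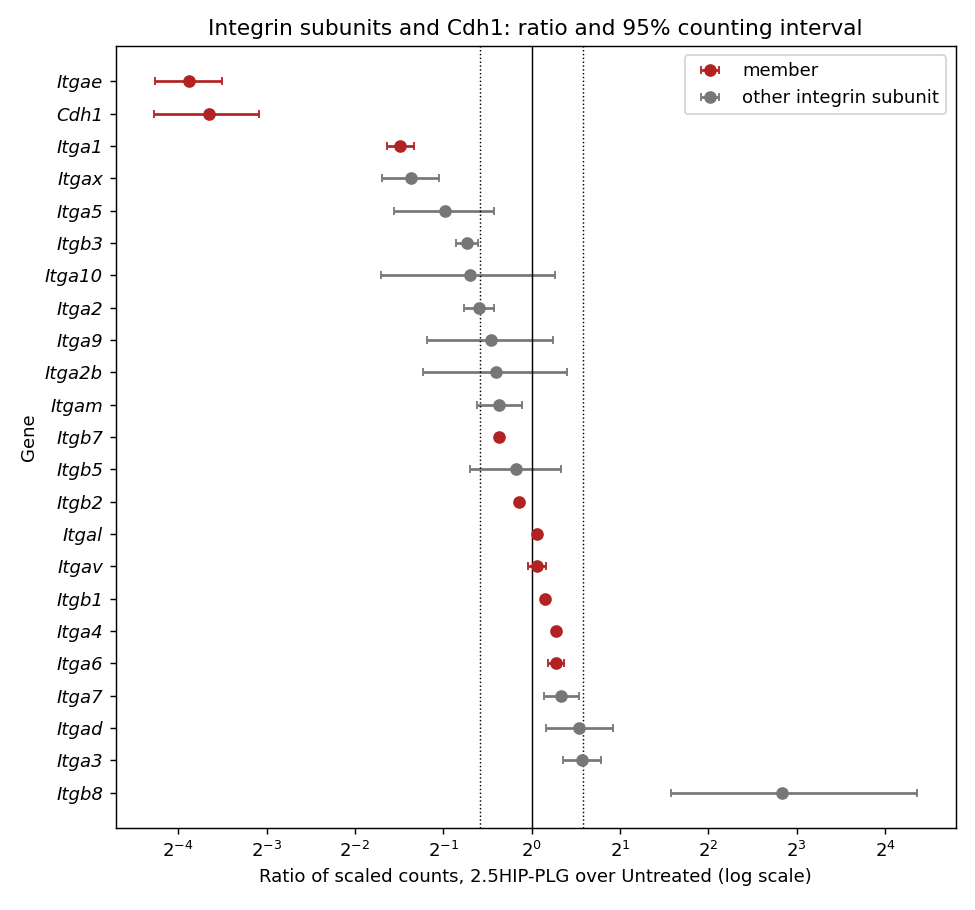
Ratio of scaled counts, 2.5HIP-PLG over Untreated (log scale), with exact 95% counting intervals for the 10 genes (red) and the 13 other measured integrin subunits (grey), lowest at the top. Dotted lines mark 1.5-fold in either direction. Itgae, Cdh1 and Itga1 are the 3 lowest, and Itgb8, at 7.11 on 37 counts in 2.5HIP-PLG and 6 in Untreated cells, is the highest.

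Counts of the alpha chains were also summed by ligand, a grouping made with the values known, so the sums are a description. The 4 collagen-binding chains (Itga1, Itga2, Itga10 and Itga11) summed to 953 counts in 2.5HIP-PLG cells, against 2350 counts in Untreated cells, a ratio of 0.468 (0.433 to 0.504), and Itga1 alone held 468 of these counts in 2.5HIP-PLG and 1510 in Untreated cells. The 3 laminin-binding chains (Itga3, Itga6 and Itga7) summed to 2998 counts in 2.5HIP-PLG and 2759 in Untreated cells, a ratio of 1.25 (1.19 to 1.32), which is neither higher nor lower by the rule, and 0 of the 3 genes were called. The 4 RGD-binding chains had a ratio of 1.02 (0.948 to 1.09). On the RPKM scale the collagen-binding chains made up 1.04% of all alpha-chain transcripts in 2.5HIP-PLG cells, against 2.02% in Untreated cells, the laminin-binding chains 4.04% in 2.5HIP-PLG and 3.35% in Untreated cells, and Itgae 0.152% in 2.5HIP-PLG and 2.35% in Untreated cells. The Itgb2 partners, nearly all Itgal, made up 64.9% in 2.5HIP-PLG and 66.0% in Untreated cells.

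**Figure D4:**
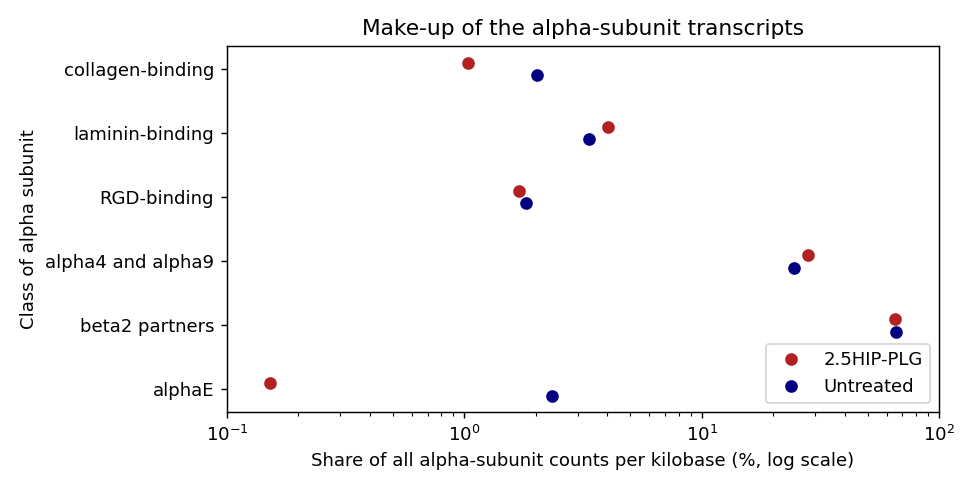
Share of all alpha-subunit counts per kilobase (percent, log scale) by ligand class in 2.5HIP-PLG cells (red) and the Untreated library (blue), over 18 alpha-subunit genes. Itgae (alphaE) was at 0.152% in 2.5HIP-PLG cells, against 2.35% in Untreated cells, and the Itgb2 partners were at 64.9% in 2.5HIP-PLG and 66.0% in Untreated cells.

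Ligands of these integrins were mostly scarce in the sorted cells. Cdh1, the ligand that was called lower, is one of the members and was not in this list. Of 19 other ligand genes, 10 were measured, 4 were called higher and 0 lower, and the list's median log2 ratio was 0.15. Spp1, encoding osteopontin, a ligand of Itgav and Itga4 integrins, had 741 counts in 2.5HIP-PLG cells, against 33 counts in Untreated cells (25.9, 18.3 to 37.9). The other 3 rested on few counts, Icam5 with 49 in 2.5HIP-PLG and 17 in Untreated, Col1a1 with 39 in 2.5HIP-PLG and 14 in Untreated and Fn1 with 34 in 2.5HIP-PLG and 21 in Untreated. Icam1, the main LFA-1 ligand, had 2014 counts in 2.5HIP-PLG and 2594 in Untreated cells (0.895, 0.844 to 0.949), Vcam1 had 78 in 2.5HIP-PLG and 87 in Untreated, and Madcam1 had 0 in both.

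As for the other lists, calls among genes that switch integrins on and link them to actin are read beside the shares over all measured genes. Those shares were 9.70% lower and 5.15% higher. Of 26 activation genes, 25 were measured, 1 was called higher and 2 lower (median log2 ratio -0.08). The higher one was Rap1a, a small GTPase that activates integrins (4456 counts in 2.5HIP-PLG and 3395 in Untreated cells, 1.51, 1.45 to 1.58), which was not called under upper quartile scaling. The lower ones were Rap1gap2, which turns Rap1 off (2076 counts in 2.5HIP-PLG and 4283 in Untreated cells, 0.559, 0.530 to 0.589), and Fermt2, a kindlin with 23 counts in 2.5HIP-PLG and 62 in Untreated cells. Tln1, encoding the talin that binds beta chain tails (37769 counts in 2.5HIP-PLG and 45490 in Untreated cells, 0.957), and Fermt3, encoding the kindlin of blood cells (8345 in 2.5HIP-PLG and 9245 in Untreated, 1.04), were neither. Of 26 adhesion complex genes, 23 were measured. Actn1, an actin crosslinker bound to integrin tails, was called higher (2218 counts in 2.5HIP-PLG and 1288 in Untreated cells, 1.99, 1.85 to 2.13), and Zyx, encoding zyxin, lower (9795 counts in 2.5HIP-PLG and 18100 in Untreated cells, 0.624, 0.609 to 0.640), with a median of 0.02.

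Cadherins and catenins were called in both directions. Of 12 genes, which are cadherins, catenins and Klrg1, 10 were measured, 3 were called higher and 4 lower (Klrg1 among them), and the list's median log2 ratio was 0.10. Klrg1, an inhibitory receptor that also binds E-cadherin, had 539 counts in 2.5HIP-PLG cells, against 1619 counts in Untreated cells (0.384, 0.348 to 0.423). Jup, encoding the junction protein plakoglobin, had 65 counts in 2.5HIP-PLG and 145 in Untreated cells (0.517, 0.380 to 0.697), Cdh17 had 37 in 2.5HIP-PLG and 70 in Untreated, and Cdh2, the N-cadherin gene, had 4 in 2.5HIP-PLG and 21 in Untreated. On the higher side stood Ctnnd1 with 43 counts in 2.5HIP-PLG and 24 in Untreated cells, Cdh23 with 45 in 2.5HIP-PLG and 29 in Untreated and Cdh5 with 17 in 2.5HIP-PLG and 7 in Untreated. Ctnnb1, encoding beta-catenin, had 5055 counts in 2.5HIP-PLG and 5456 in Untreated cells (1.07, 1.03 to 1.11) and was neither.

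Of 22 genes associated with tissue residence, 21 were measured, 6 were called lower and 2 higher, and the median log2 ratio was -0.31. The lower ones were Gpr15, a homing receptor of the large intestine (34 counts in 2.5HIP-PLG and 185 in Untreated cells, 0.212, 0.143 to 0.307), Ahr, a ligand-activated transcription factor (76 in 2.5HIP-PLG and 184 in Untreated, 0.476), Rgs2, Cd101, Ccr9 and Zfp683, which encodes Hobit, a transcription factor of resident lymphocytes (842 in 2.5HIP-PLG and 1683 in Untreated, 0.577, 0.530 to 0.627). Of these 6, 3 were still called at a ratio of at least 2, and Zfp683, Cd101 and Ccr9 were not. Ccr9 had 24 counts in 2.5HIP-PLG and 50 in Untreated cells. Its call was also lost with a 99% interval and with a count minimum of 100. Litaf (1021 counts in 2.5HIP-PLG and 329 in Untreated cells, 3.58, 3.16 to 4.06) and the chemokine gene Xcl1 (107 in 2.5HIP-PLG and 37 in Untreated) were higher. Runx3, a transcription factor that acts on Itgae in CD8 T cells, had 4227 counts in 2.5HIP-PLG and 7225 in Untreated cells (0.675, 0.649 to 0.701), just short of the size limit. Cd69, which blocks egress, had 2647 in 2.5HIP-PLG and 4029 in Untreated (0.758, 0.721 to 0.796).

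Of the 10 genes of recirculation, 2 were called higher, 1 lower and 7 neither, and the list's median log2 ratio was -0.06. Eomes, a T-box transcription factor, was higher, with 735 counts in 2.5HIP-PLG cells, against 360 counts in Untreated cells (2.35, 2.07 to 2.68). S1pr5, a sphingosine phosphate receptor, was lower (656 counts in 2.5HIP-PLG and 2990 in Untreated cells, 0.253, 0.232 to 0.275). S1pr1, the main egress receptor, had 6420 counts in 2.5HIP-PLG and 7750 in Untreated cells (0.955, 0.924 to 0.987), and Klf2, which drives its transcription, had 11369 in 2.5HIP-PLG and 15479 in Untreated (0.847). Selplg, the selectin ligand PSGL-1, had 16728 in 2.5HIP-PLG and 25695 in Untreated (0.751, 0.736 to 0.766) and was not called.

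In the TGF-beta pathway, which induces Itgae in T cells, 15 of 17 genes were measured, 3 were called lower and 1 higher, and the list's median log2 ratio was -0.25. The lower ones were the receptor genes Tgfbr1 (435 counts in 2.5HIP-PLG and 886 in Untreated cells, 0.566, 0.504 to 0.636) and Tgfbr3 (477 in 2.5HIP-PLG and 1304 in Untreated, 0.422, 0.379 to 0.469), and Smad7, an inhibitor of the pathway that the pathway itself induces (972 in 2.5HIP-PLG and 1818 in Untreated, 0.617, 0.570 to 0.667). The higher one was Itgb8. Tgfbr2 had 6072 counts in 2.5HIP-PLG and 9666 in Untreated cells (0.724, 0.701 to 0.748), Smad3 had 3987 in 2.5HIP-PLG and 5288 in Untreated (0.869), and Tgfb1 had 6183 in 2.5HIP-PLG and 6449 in Untreated (1.11, 1.07 to 1.15).

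**Figure D5:**
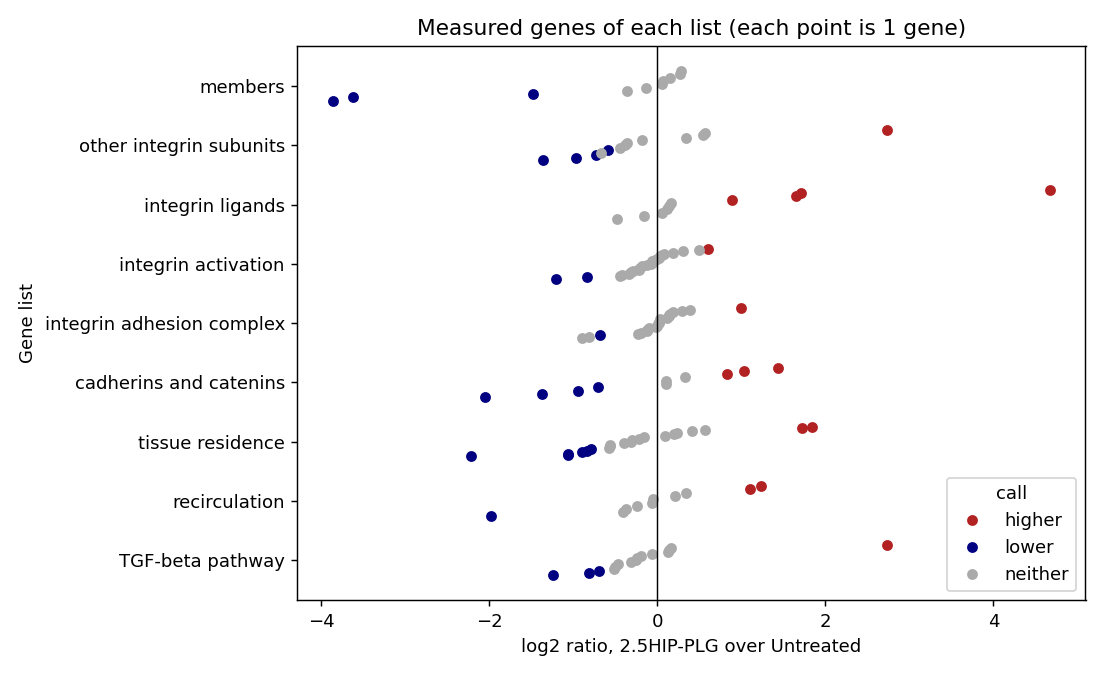
The log2 ratio of 2.5HIP-PLG over Untreated for each measured gene (1 point per gene) of the 10 genes described here and of 8 further lists, coloured by call. Tissue residence genes had 6 lower and 2 higher of 21, recirculation genes 1 lower and 2 higher of 10.

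The sort for Foxp3-negative (GFP-negative) CD4+ T cells is meant to remove the other cells that can carry these genes, and their markers were read in both libraries. Dendritic cells express Itgae and Itgax. Their 10 markers summed to 70.8 CPM in 2.5HIP-PLG cells, against 99.1 CPM in Untreated cells. Most of each sum was Cd74, at 46.15 CPM in 2.5HIP-PLG and 59.19 in Untreated cells. All 7 measured markers had ratios below 1, and 1 of them was called lower (Itgax). Clec9a had 0 counts in 2.5HIP-PLG and 1 in Untreated cells and Xcr1 66 in 2.5HIP-PLG and 110 in Untreated (0.692, 0.502 to 0.947), both markers of the dendritic subset that bears CD103. NK and ILC1 cells express Itga1, and their 6 markers summed to 50.1 CPM in 2.5HIP-PLG and 72.5 in Untreated cells, with Ncr1, Klrb1c and Klrd1 called lower and Klra8 higher. Cd8a had 0 counts in 2.5HIP-PLG and 9 in Untreated cells and Cd8b1 304 in 2.5HIP-PLG and 272 in Untreated, a CD8 sum of 13.5 CPM in 2.5HIP-PLG and 10.8 in Untreated cells. Epithelium is the usual source of Cdh1, and its 8 markers summed to 3.14 CPM in 2.5HIP-PLG and 1.54 in Untreated cells. Krt8, Krt19, Cldn3 and Cldn4 had 0 counts in both libraries, Epcam had 63 counts in 2.5HIP-PLG and 18 in Untreated cells and Krt18 had 4 in 2.5HIP-PLG and 20 in Untreated. Regulatory T cells often carry CD103 and Itgb8, and 4 of their 5 markers were called higher, among them Foxp3 (1157 counts in 2.5HIP-PLG and 389 in Untreated cells, not whole), with a sum of 322 CPM in 2.5HIP-PLG and 173 in Untreated cells. Il2ra went the other way, with 812 counts in 2.5HIP-PLG and 1358 in Untreated cells (0.69, 0.631 to 0.753), and was not called. Platelets carry Itgb3 and Itga6, and apart from Itgb3 their markers had at most 35 counts in a library. The part of these cells, and of the composition differences given with the depth, in the lower Itgae, Cdh1 and Itga1 was not tested. In pooled cells, fewer cells with a transcript and less transcript per cell cannot be told apart.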

How the data were processed

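RNA from sorted cells of 2 groups was sequenced with 1 library per group, each pooled from 4 mice. RNA was extracted with a Qiagen RNeasy kit and libraries were made with a NuGen mRNA kit, per the labels' protocols. The submitters' processing notes name STAR, RSEM 1.3.1 and GRCm38. Which annotation, STAR version, filters and strand setting were used is not stated in them or in the labels, so overlapping and antisense genes are uncertain. The authors deposited unscaled expected counts per gene, of which 11.1% (2.5HIP-PLG) and 11.8% (Untreated) were not whole. They were rounded.

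The group came from the treatment label, since both samples carry the injection protocol. Counts were divided by library total. Ratios have exact conditional binomial (Clopper-Pearson) intervals, and levels have exact Poisson intervals. No molecular identifiers are described, so both cover counting error only, not differences between mice. Medians of log2 ratios used 0.5 added counts. No test across samples was possible. Gene lengths and coordinates came from GENCODE M21 (GRCm38), which held 54409 of the row IDs, and promoters from RefSeq (GRCm38.p6). The length is the union of a gene's exons.

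The members, the 8 other gene lists and the 13 marker lists were chosen with earlier results of these data known. The naming rule covered all integrin subunits and the 4 genes of each list whose log2 ratio was farthest from 0. It also covered the 3 markers of each cell type with the most counts, and the 3 genes nearest in log2 ratio to each called member. It was not followed in full, as Tln2, Ptk2, Parvb, Lars2 and many of the markers were left out. Others (such as Zfp683, Runx3, Cd69, Jup, Tgfbr2 and Foxp3) were named after their values were seen. A called gene of the recirculation list is counted with its list and not reported singly here. Alternatives were TMM (edgeR 4.0.16), median-of-ratios (DESeq2 1.42.0) and upper quartile scaling, a ratio of 2, a 99% interval, a count minimum of 100 or none, 2 added counts, unrounded counts and the longest transcript as length. Python 3.11.15 with scipy 1.17.1 and R 4.3.3 were used.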

Additional observations from a re-analysis of the deposited data

How the results depend on the processing

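Under TMM, median-of-ratios and upper quartile scaling, unrounded counts, a ratio of at least 2, a 99% interval, a count minimum of 100 and no minimum, 3 members were called lower and 0 higher. The median log2 ratio of the members stayed between -0.05 and -0.03, and the scalings moved the median of all measured genes by less than 0.1. The number of all genes called fell with stricter rules by their construction, to 808 lower and 387 higher at a ratio of at least 2, and to 748 lower and 473 higher at a count minimum of 100, beside 1348 lower and 716 higher. Among list genes, TMM and median-of-ratios scaling changed 2 calls (Itga2 lost, Fabp5 gained), upper quartile scaling 2 (Rap1a lost, Bhlhe40 gained as lower), a 99% interval 5, a count minimum of 100 10 and a ratio of at least 2 16. The calls lost at a minimum of 100 were Itgb8, Icam5, Col1a1, Fn1, Fermt2, Cdh2, Cdh5, Cdh23, Ctnnd1 and Ccr9, which rest on few counts. With the longest transcript as length, the share of Itgae among the alpha partners of Itgb7 was 0.450% in 2.5HIP-PLG cells, against 7.40% in Untreated cells, and that of Itga1 among the collagen-binding chains was 38.1% in 2.5HIP-PLG and 53.5% in Untreated cells, beside 26.7% in 2.5HIP-PLG and 40.5% in Untreated cells with the union of exons. The alternatives for gene lists and overlapping genes were added after seeing the data. No paired analysis was possible because each group has 1 library.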

Other observations

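On the RPKM scale the 8 beta-subunit genes summed to 1688 in 2.5HIP-PLG cells, against 1749 in Untreated cells, and the 18 alpha-subunit genes to 400 in 2.5HIP-PLG and 380 in Untreated cells, so beta-chain transcripts were in excess in both. Itgb1 made up 51.7% of beta-chain transcripts in 2.5HIP-PLG cells, against 45.0% in Untreated cells, Itgb2 28.0% in 2.5HIP-PLG and 29.7% in Untreated cells, and Itgb7 19.9% in 2.5HIP-PLG and 24.7% in Untreated cells. The other 5 beta chains made up the small remainder.

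Of the remaining marker lists, macrophage markers summed to 14.2 CPM in 2.5HIP-PLG cells, against 9.60 CPM in Untreated cells, with 3 of 6 measured called higher. Neutrophil markers summed to 13.4 CPM in 2.5HIP-PLG and 3.73 in Untreated cells with 2 of 3 higher. Mast cell and basophil markers summed to 29.9 CPM in 2.5HIP-PLG and 21.9 in Untreated cells with 3 of 5 higher (Mcpt8, Prss34 and Cpa3). Kit made up most of the Untreated sum and went the other way, at 12.9 CPM in 2.5HIP-PLG and 18.1 in Untreated cells (0.715, 0.616 to 0.829), without a call. Endothelial and stromal markers summed to 130 CPM in 2.5HIP-PLG and 101 in Untreated cells, nearly all of it Pecam1, which was not called, with 2 of 4 higher on few counts (Cdh5 and Col1a1). B cell markers summed to 167 CPM in 2.5HIP-PLG and 102 in Untreated cells, almost all of it Ighm, while Ms4a1 had 0 counts in both libraries. Ighm, the only measured B cell marker, was called higher (3761 counts in 2.5HIP-PLG and 2641 in Untreated cells, 1.64, 1.56 to 1.73). Erythroid markers summed to 48.8 CPM in 2.5HIP-PLG and 53.6 in Untreated cells with 1 of 6 lower, and platelet markers to 37.4 CPM in 2.5HIP-PLG and 60.1 in Untreated cells, mostly Itgb3.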
